A study of Mus musculus with 2 samples.

Results

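The 50 genes of subfamilies A to G of the ATP-binding cassette (ABC) transporters, found by their symbols among 55414 gene identifiers, are described in mouse embryonic stem cells with and without Adriamycin. Of the 50, 34 were measured, meaning that their CPM averaged 1 or more across the pair of libraries (CPM is counts per 1e6 reads after TMM scaling), against 14871 measured genes in all. Both libraries came from the line R1E, labelled wild type and kept in serum medium with leukemia inhibitory factor. One was untreated and labelled 0 h, and the other came from cells exposed for 8 h to 0.5 µM of Adriamycin (doxorubicin), an anthracycline that damages DNA. There is 1 library in each group, so no test between them was possible. No untreated library at 8 h was analysed here, so drug, time and culture cannot be told apart. Each value below describes these 2 libraries.

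ABC proteins bind and split ATP with a paired nucleotide-binding domain, and most of them use it to move lipids, drugs, peptides or metals across a membrane. Proteins of subfamilies E and F have the ATPase domains without a membrane part and act on ribosomes. P-glycoprotein, the first drug pump found in the family, exports doxorubicin and many other compounds. Rodents have 2 genes for it, Abcb1a and Abcb1b, where humans have 1. ABCC1 (MRP1) and ABCG2 (BCRP) are the other ABC pumps best known for drug resistance, and ABCG2 is also known as a marker of stem cells that exclude dyes.

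Ratios are Adriamycin over untreated and are given as log2 values with 95% counting intervals in parentheses (exact conditional binomial), which cover counting error only. A gene is called higher or lower past 2-fold. Of the 34 measured ABC genes, 8 (23.5%) were called higher and 2 (5.88%) were called lower. Over all measured genes these shares were 17.0% and 6.95%. The counts of called members are thus close to those of the background. The median log2 ratio of the 34 was 0.48, against -0.03 over all measured genes. It was 0.21 over the 30 members with at least 1 CPM in both libraries and 0.15 over the 26 without exon overlap. All genes were not filtered in these 2 ways, so no like value stands beside them. Over the 23 members averaging 5 CPM or more it was 0.069, against -0.10 over all genes at that level. The median of the members thus depends on low and overlapping members, and its distance from all genes on low ones. Of the 34, 21 were above 0 (61.8%, against 48.4% of all measured genes). The higher genes were Abcc9, Abcc6, Abcb9, Abcb1b, Abcc3, Abcg1, Abcg3 and Abcd4, and the lower ones were Abcd3 and Abce1. Fewer cells of a type and less RNA per cell cannot be told apart in such bulk samples.

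**Figure D1:**
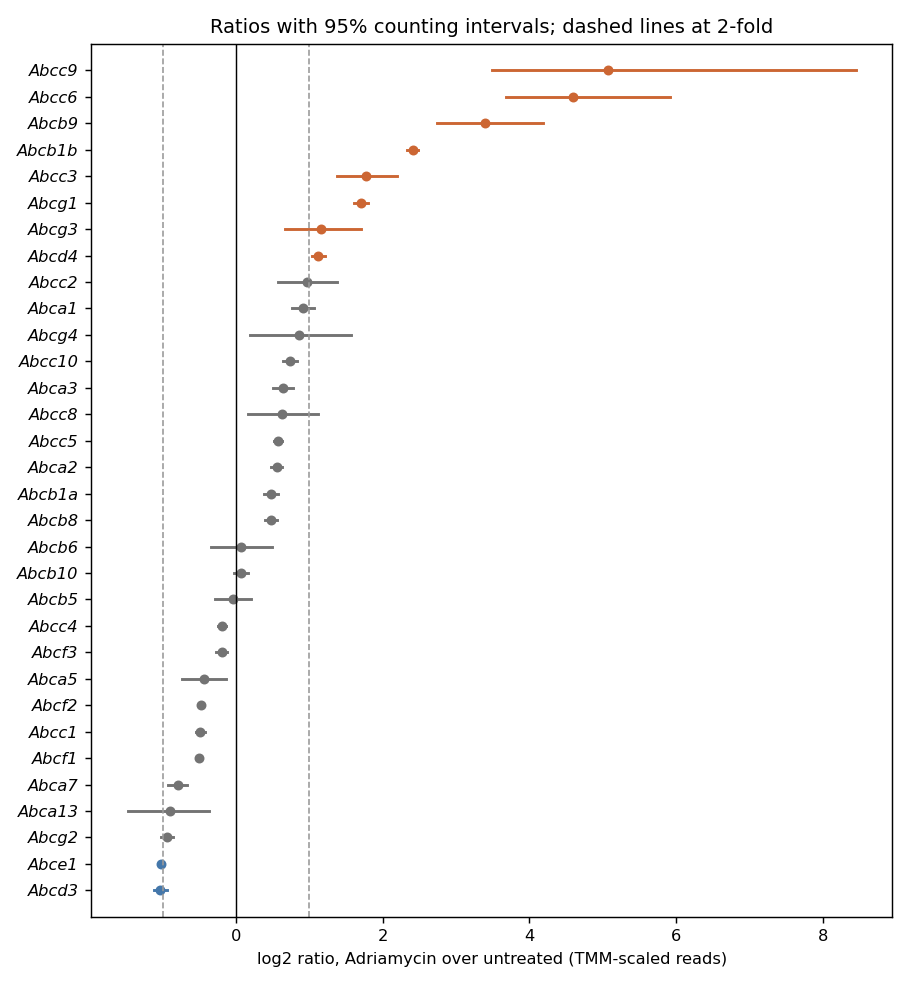
Log2 ratio of Adriamycin over untreated for the measured ABC genes reported by name (points), with the 95% counting interval (lines). The x axis is the log2 ratio of scaled reads and the dashed lines mark 2-fold. Orange genes were called higher, blue genes lower and grey genes neither. Abcb1b combined a ratio of 2.41 with a narrow interval, whereas Abcc9 and Abcc6 rested on few untreated reads.

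The called genes came from different levels of expression. With a mean of 1 to 5 CPM, 5 of 11 ABC genes were higher, where 31.8% of all genes in that range were. With 5 to 25 CPM it was 0 of 4 (18.6% of all genes), with 25 to 100 CPM 2 of 12 (10.1%) and with 100 CPM or more 1 of 7 (7.02%). The last one was Abcb1b. Of the 34 measured members, 4 reached 1 CPM in the Adriamycin library alone, namely Abcb9, Abcc6, Abcc9 and Abcg4. They passed the level through the library in which they were high. The place of Abcb9, Abcc6 and Abcc9 among the higher genes is thus partly set by the filter, while Abcg4 was called neither. The other 30 reached 1 CPM in both libraries, with 5 higher and 2 lower.

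**Figure D2:**
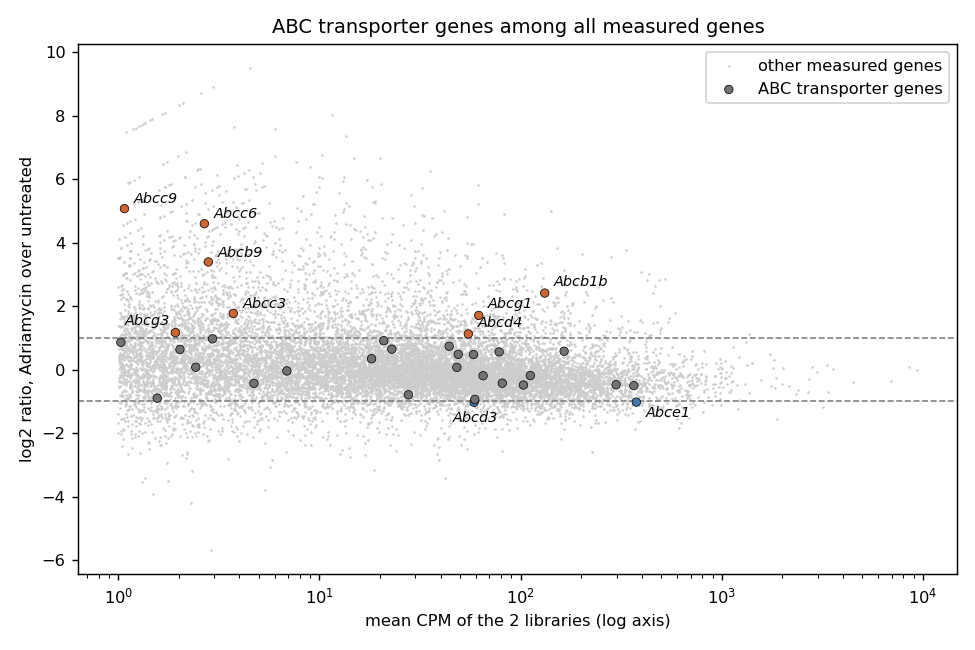
Log2 ratio of Adriamycin over untreated (y axis) against mean CPM of the 2 libraries (x axis, log scale) for all 14871 measured genes in light grey, with the 34 ABC genes on top (orange higher, blue lower, dark grey neither). The ABC genes far above the 2-fold line lie mostly at the left, at a low mean CPM, and Abcb1b, at a log2 ratio of 2.41, is the 1 ABC gene above that line with a mean over 100 CPM.

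The promoter sequences of called genes are shown so that the read counts below can be set beside them. RefSeq promoter windows (GRCm38.p6, from 250 bases before to 50 after a start site) were matched for 38 of the 50 members, in 45 windows. Of the 8 higher genes, Abcb1b, Abcb9, Abcc9 and Abcg3 had 1 window each, and among the lower ones Abce1 had 1. The window of Abcb1b spans chr5:8797897-8798196 (plus strand), that of Abcb9 chr5:124095749-124096048 (minus), that of Abcc9 chr6:142702225-142702524 (minus), that of Abcg3 chr5:104982668-104982967 (minus) and that of Abce1 chr8:79711691-79711990 (minus). These 5 start sites lie within 1 base of a GENCODE M21 transcript start on the same build. The matched window of Abcb1a lies 92986 bases from the nearest such start and is not shown. Capitals mark the motifs searched on both strands. These were the box CCAAT, the GC box GGGCGG, the TATA box TATAAA, the E-box CACGTG and the p53 half-site, a decamer.
Abcb1b: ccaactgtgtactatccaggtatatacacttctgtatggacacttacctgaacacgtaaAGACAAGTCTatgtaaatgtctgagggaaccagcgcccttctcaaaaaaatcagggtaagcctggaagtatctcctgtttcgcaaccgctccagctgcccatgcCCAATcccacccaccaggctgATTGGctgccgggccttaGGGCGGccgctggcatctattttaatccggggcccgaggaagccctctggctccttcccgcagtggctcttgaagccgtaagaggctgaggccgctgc
Abcb9: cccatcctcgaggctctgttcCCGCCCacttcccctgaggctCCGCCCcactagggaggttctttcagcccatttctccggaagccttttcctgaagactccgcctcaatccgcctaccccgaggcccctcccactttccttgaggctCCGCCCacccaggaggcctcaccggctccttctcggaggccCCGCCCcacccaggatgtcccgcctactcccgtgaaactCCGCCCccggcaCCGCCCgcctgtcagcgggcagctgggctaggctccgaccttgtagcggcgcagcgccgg
Abcc9: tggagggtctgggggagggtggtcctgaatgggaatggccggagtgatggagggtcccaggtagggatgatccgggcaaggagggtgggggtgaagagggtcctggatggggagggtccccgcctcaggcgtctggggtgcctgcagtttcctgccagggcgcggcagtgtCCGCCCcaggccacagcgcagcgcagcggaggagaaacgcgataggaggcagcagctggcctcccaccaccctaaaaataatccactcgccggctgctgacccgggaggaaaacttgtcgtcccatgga
Abcg3: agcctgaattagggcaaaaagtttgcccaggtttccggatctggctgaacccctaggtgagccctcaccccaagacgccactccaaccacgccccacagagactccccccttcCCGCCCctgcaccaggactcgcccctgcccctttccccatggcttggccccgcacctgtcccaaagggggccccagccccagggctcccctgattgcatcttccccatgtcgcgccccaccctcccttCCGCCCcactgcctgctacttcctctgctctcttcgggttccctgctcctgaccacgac
Abce1: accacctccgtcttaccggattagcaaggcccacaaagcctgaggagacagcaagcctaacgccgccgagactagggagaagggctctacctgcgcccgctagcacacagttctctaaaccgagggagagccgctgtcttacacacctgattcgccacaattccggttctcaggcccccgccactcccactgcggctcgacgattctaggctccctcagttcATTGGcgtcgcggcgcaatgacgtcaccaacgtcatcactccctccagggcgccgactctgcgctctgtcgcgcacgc

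The Abcb1b window held 1 match to the p53 half-site decamer, AGACAAGTCT, which begins 191 bases before the start site. This is a half-site only, and full p53 sites were not searched for. It also held CCAAT at 87 and, on the other strand, at 66 bases before the start, and GGGCGG at 48 bases before it. The decamer was present in 4 of the 45 member windows (8.89%) and in 8.36% of all 32851 windows of the table. The other windows with it belonged to Abca12, Abca13 and Abcc2. GGGCGG was in all 4 windows of higher genes, 6 times in that of Abcb9. It was also in 15 of the 23 windows (65.2%) of measured members called neither. Among all 45 member windows it was in 21 (46.7%), and it was in 35.7% of all windows. Neither Abce1 nor Abcd3 (2 windows), the lower genes, held GGGCGG, and Abce1 held 1 CCAAT on the other strand. CCAAT was in 35.6% of member windows and 37.4% of all, TATAAA in 15.6% and 13.6%, and CACGTG in 13.3% and 7.15%. Such matches describe letters only. Whether any factor bound there was not measured.

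Abcb1b, the P-glycoprotein gene on chromosome 5 (8848147 to 8916315, plus strand, GRCm39; ENSMUSG00000028970), was counted 1660 times without the drug and 8995 times with it. Per kilobase of counted exon its level was 5.22 and 27.8 CPM. The log2 ratio was 2.41 (2.33 to 2.49), a 5.31-fold difference, and with counts divided by 2 (for the 2 reads of a pair) the interval was 2.30 to 2.52. Its sister gene Abcb1a (8710077 to 8798575, same strand; ENSMUSG00000040584), which encodes the other P-glycoprotein, had 1626 and 2312 reads. The log2 ratio of Abcb1a was 0.48 (0.39 to 0.57), or 1.40-fold. The pair thus had nearly equal reads without the drug and unequal reads with it. Per kilobase, Abcb1a was the more abundant without the drug (7.46 against 5.22 CPM) and Abcb1b with it (27.8 against 10.4 CPM). The order without the drug rests on the counted exon lengths, 5480 bases for Abcb1a and 7990 for Abcb1b. Abcb1b took 50.5% of the pair's reads without the drug (95% exact binomial interval 48.8% to 52.2%) and 79.6% with it (78.8% to 80.3%). The difference between the log2 ratios of the pair, which does not depend on how the libraries are scaled, was 1.93 (1.81 to 2.05). Summed per kilobase, the pair went from 12.7 to 38.2 CPM.

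Reads of the pair can be confused where their sequences are alike. Of the 8033 distinct words of 50 bases in Abcb1b transcripts (GENCODE M21), 889 (11.1%) also occur in Abcb1a, and 66 (0.822%) in Abcb4. The same 889 words are 16.3% of the 5459 of Abcb1a, and 22.5% of the words of Abcb1a occur in some other gene. The sources used here do not state the read length. Exons of Abcb1b overlap those of Gm5106 on the opposite strand over 143 of 7990 bases, and Gm5106 had 2 and 13 reads. Exons of Abcb1a overlap Gm42686 over 553 of 5480 bases, and Gm42686 had 1 and 5 reads. These neighbours held few reads beside those of the pair, but counts per gene do not give the reads in the shared bases.

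The measured genes around Abcb1b were not past 2-fold, while genes there with few reads had ratios like its own. Abcb1a ends 49.6 kb before Abcb1b and Abcb4 begins 27.4 kb after it. Abcb4, whose product flips phosphatidylcholine into bile, had 9 and 38 reads and was not measured (log2 ratio 1.99, 0.98 to 3.28). Beyond Abcb4, Crot, a peroxisomal carnitine acyltransferase gene on the opposite strand, had 1726 and 2596 reads (log2 ratio 0.56). On the other side Rundc3b had 368 and 258 reads (log2 ratio -0.54). The nearest measured gene after Abcb1b, Gm17936, lies inside Abcb4 and had 158 and 91 reads (log2 ratio -0.82). Gm5106, with its 2 and 13 reads, had a log2 ratio of 2.41, and 7330423F06Rik, within Abcb1b on the same strand, had 2 and 14 reads (2.51). Reads there and reads of Abcb1b cannot be told apart by strand.

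**Figure D3:**
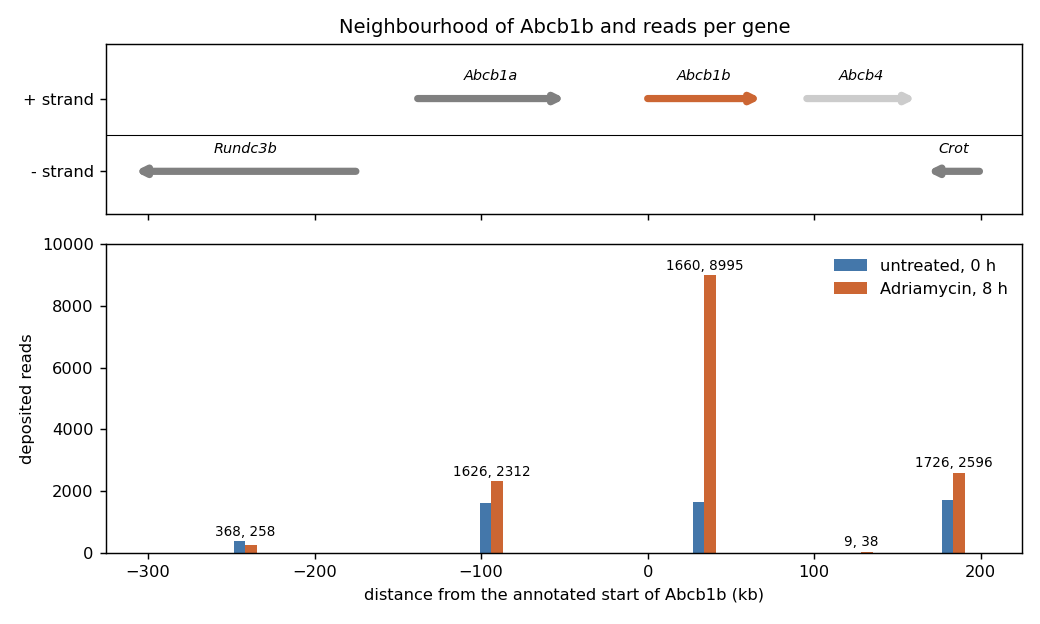
Genes around Abcb1b, drawn by distance from its annotated start in kb, with arrows in the direction of transcription (top), and deposited reads per gene in the untreated (blue bars) and Adriamycin (orange bars) libraries (bottom, untreated count first above each pair). Genes of predicted transcripts are left out. Abcb1b went from 1660 to 8995 reads, and Abcb1a and Crot on its flanks differed less.

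Of 5 other members known for drug efflux, Abcg2, Abcc1 and Abcc4 had negative ratios and Abcc2 and Abcc5 positive ones, none past 2-fold. These are not all such members. Abcc3, Abcc10 and Abcb5 are given below, where Abcc3 was called higher and Abcc10 and Abcb5 neither. Abcg2 had 3096 and 1645 reads (log2 ratio -0.94, -1.03 to -0.85), just short of the 2-fold line. Abcc1 had 4796 and 3489 reads (log2 ratio -0.49, -0.55 to -0.42). Abcc4, an exporter of cyclic nucleotides and nucleotide analogs, had 4737 and 4238 reads (-0.19), and its relative Abcc5 had 5251 and 7984 (0.58). Abcc2, the apical organic anion pump of liver, had 79 and 158 reads (log2 ratio 0.97, 0.57 to 1.38). Among the 46 members other than subfamilies E and F, Abcb1b held 3.54% of the summed level per kilobase without the drug and 14.6% with it, while Abcg2 went from 6.47% to 2.61% and Abcc1 from 5.42% to 2.99%. In order of level per kilobase among all 50, Abcb1b moved from place 15 to place 4.

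The ABCC subfamily had 3 higher and 0 lower of 9 measured members, with a median log2 ratio of 0.74. Over all measured genes 17.0% were higher and 6.95% lower. All 3 higher members averaged 1 to 5 CPM, a range in which 31.8% of all genes were higher. Among them, Abcc6 and Abcc9 reached 1 CPM in the Adriamycin library alone. Abcc3, a basolateral pump for conjugated organic anions, had 67 and 234 reads (log2 ratio 1.77, 1.38 to 2.19). Abcc6, which is known for its part in ATP release and for the calcification disease pseudoxanthoma elasticum, had 8 and 209 reads (log2 ratio 4.60, 3.67 to 5.91). Abcc9, the sulfonylurea receptor SUR2, had 2 and 85 reads (log2 ratio 5.07, 3.48 to 8.45). Abcc9 was nearly without reads in the untreated library. In the Adriamycin library it was still low, at 0.250 CPM per kilobase. Its exons overlap 5330439B14Rik on the opposite strand over 158 bases. That gene had 0 reads in both libraries, which does not give the reads in the shared bases.

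Sulfonylurea receptors form potassium channels with the pore subunits Kcnj8 and Kcnj11, and neither was measured. Kcnj8, which lies beside Abcc9, had 10 and 2 reads, and Kcnj11 had 13 and 35. Abcc8 (SUR1) had 63 and 100 reads (log2 ratio 0.64, 0.17 to 1.12). Abcc6 and Abcc8 lie 74.2 kb apart on chromosome 7. The measured gene nearest to Abcc6, Nomo1 on the opposite strand, had 11634 and 28155 reads (log2 ratio 1.25). Abcc10, another organic anion pump, had 1318 and 2237 reads (0.74). Abcc12 was below the level, at 12 and 6 reads.

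Within ABCB, 2 of 8 measured members were higher and none of the 8 was lower (median log2 ratio 0.28). Over all measured genes 17.0% were higher and 6.95% lower. The second higher one was Abcb9, a lysosomal peptide transporter related to the antigen peptide transporters, with 19 and 208 reads (log2 ratio 3.39, 2.75 to 4.19). Its nearest measured neighbours were also higher, Vps37b with 324 and 761 reads and Ogfod2 with 165 and 346. Of the mitochondrial members, Abcb8 had 1941 and 2750 reads (log2 ratio 0.48) and Abcb10, a heme pathway protein, 1871 and 2001 (0.07). Abcb6 (94 and 101 reads) and Abcb5 (278 and 275 reads) differed little. The sign for Abcb5, Abcb6 and Abcb10 flips with the scaling of the libraries. Exons of Abcb6 are shared with Gm29253 over 2932 of 5315 bases on the same strand, so the Abcb6 count is uncertain. Abcb11, the bile salt export pump, had 3 and 0 reads.

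The ABC superfamily genes Tap1, Tap2 and Cftr have symbols outside the naming rule, and 2 of them were further apart than most members. Tap1 and Tap2 encode the pair that carries peptides into the endoplasmic reticulum for antigen presentation. Tap1 had 213 and 6465 reads (log2 ratio 4.89, 4.70 to 5.10), and Tap2 had 23 and 227 reads (log2 ratio 3.25, 2.65 to 3.96). In the Adriamycin library Tap1 reached 29.1 CPM per kilobase, beside 27.8 for Abcb1b. Cftr, the chloride channel gene, had 13 and 10 reads. Tap1, Tap2 and their relative Abcb9 were thus all higher in the Adriamycin library, each from a low untreated level.

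In ABCG, Abcg1 and Abcg3 were higher among 4 measured members, where 17.0% of all measured genes were higher. Abcg1, which moves cholesterol to lipoproteins, had 1155 and 3842 reads (log2 ratio 1.71, 1.61 to 1.80), and its level per kilobase was 3.98 and 13.0 CPM. Abcg1 and Abcg2 changed places. Abcg2 exceeded Abcg1 per kilobase in the untreated library (9.55 against 3.98 CPM) and Abcg1 exceeded Abcg2 in the Adriamycin library (13.0 against 4.98 CPM). The nearest measured neighbours of Abcg1 were Umodl1 with 1 and 96 reads and Tmprss3 with 25 and 133. Both neighbours reached 1 CPM in the Adriamycin library alone, so their place here is partly set by the filter. Abcg3, a rodent gene, had 47 and 108 reads (2.24-fold, log2 interval 0.67 to 1.70), and Abcg4 had 29 and 54 (0.86, 0.19 to 1.57). Abcg5 and Abcg8, which together form the sterol exporter of gut and liver, had 0 and 9 reads and 3 and 38 reads, below the level.

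Of 16 ABCA genes, most of which move lipids, 6 were measured and none of the 6 was past 2-fold. Of all measured genes, 17.0% were higher and 6.95% lower. The median log2 ratio of the 6 was 0.06, which is below 0 with upper-quartile scaling. Abca1, the partner of Abcg1 in cholesterol efflux, had 577 and 1106 reads (log2 ratio 0.91, 0.76 to 1.06). The difference between the log2 ratios of Abcg1 and Abca1 was 0.80 (0.62 to 0.97). Abca2 had 2518 and 3775 reads (0.56) and Abca3, the surfactant lipid transporter, 711 and 1132 (0.64), with 914 of its 9374 exon bases shared with the opposite-strand gene D330041H03Rik. On the other side were Abca7, a phospholipid transporter, with 1398 and 821 reads (-0.80), Abca13 with 81 and 44 (-0.90) and Abca5 with 216 and 163 (-0.43). Abca5 was the 1 measured gene of its cluster on chromosome 11. Its neighbours there, Abca6, Abca8a, Abca8b and Abca9, had at most 10 reads.

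In ABCD, the peroxisomal member Abcd3 and the lysosomal member Abcd4 moved apart. Abcd3 (PMP70), an importer of fatty acids, had 3138 and 1565 reads (log2 ratio -1.03, -1.12 to -0.94). Abcd4, which takes part in the release of cobalamin from lysosomes, had 1375 and 3054 reads (log2 ratio 1.12, 1.03 to 1.22). Abcd3 was the more abundant per kilobase in the untreated library (12.0 against 4.32 CPM) and Abcd4 in the Adriamycin library (9.41 against 5.85 CPM). The difference between their log2 ratios was 2.16 (2.03 to 2.28). Abcd2 was below the level, at 1 and 15 reads. Pairs of members were chosen for such differences after their values were seen.

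The 4 members that act on ribosomes all had log2 ratios below 0, also under each scaling tried. Abcf2, Abcf1 and Abce1 were the 3 highest ABC genes per kilobase in both libraries. Abce1, which splits ribosomes after termination, had 20053 and 10046 reads (log2 ratio -1.02, -1.06 to -0.99), and its level per kilobase was 84.0 and 41.3 CPM. Abcf1 had 17066 and 12243 reads (-0.51), Abcf2 13806 and 10119 (-0.48) and Abcf3 2762 and 2461 (-0.19). Subfamilies E and F together held 69.5% of the summed level per kilobase of the 50 genes without the drug and 54.0% with it. The summed level of the other 46 went from 148 to 190 CPM per kilobase.

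**Figure D4:**
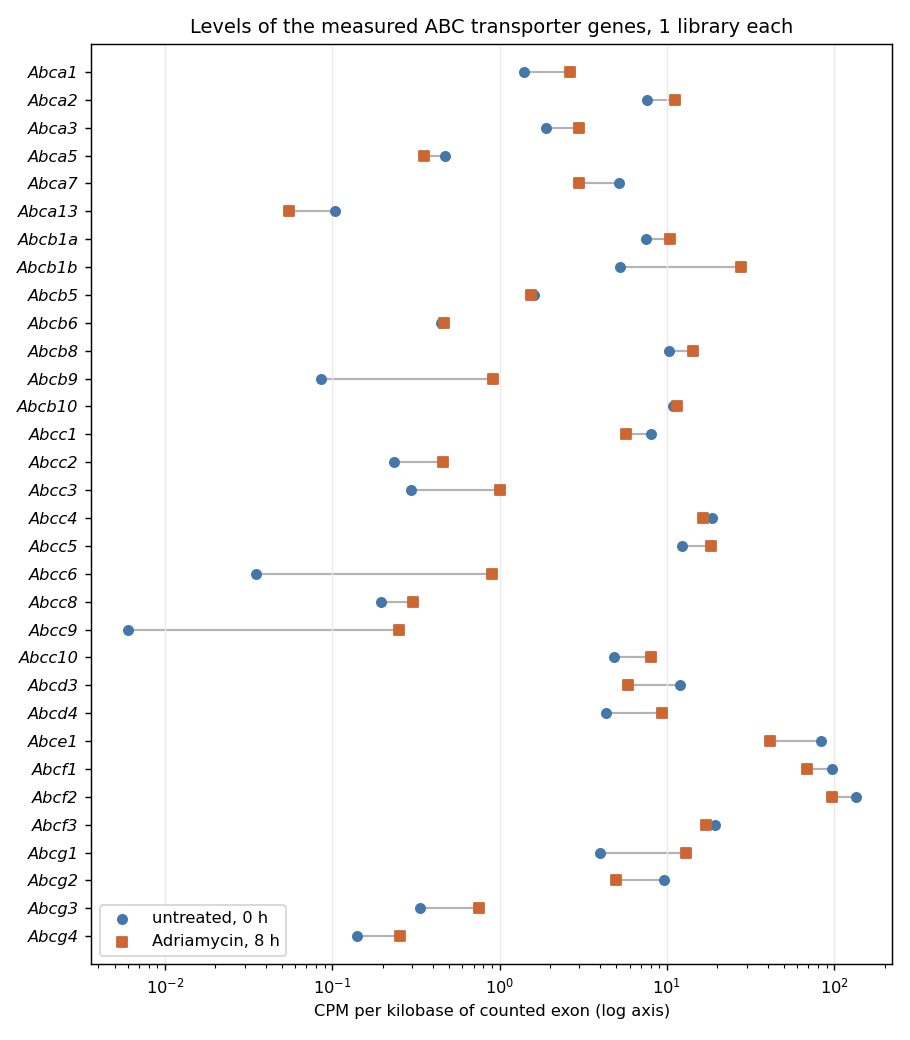
Level of the measured ABC genes reported by name in CPM per kilobase of counted exon (x axis, log scale) in the untreated library (blue circles) and the Adriamycin library (orange squares), 1 library each, joined by a grey line. Abce1, Abcf1 and Abcf2 lie at the right at 41.3 to 135 CPM per kilobase, and Abcb1b moved from 5.22 to 27.8.

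The lines at 2-fold ran close to several members. Just inside the higher line were Abcd4 (2.18-fold) and Abcg3 (2.24-fold), the next being Abcg1, further off at 3.26-fold, and just outside it were Abcc2 (1.96-fold), Abca1 (1.88-fold) and Abcg4 (1.81-fold). Just inside the lower line were Abce1 (2.04-fold) and Abcd3 (2.04-fold), and just outside it Abcg2 (1.92-fold), Abca13 (1.87-fold) and Abca7 (1.74-fold). With library totals in place of TMM scaling, 11 were higher and 0 lower, since Abcc2, Abca1 and Abcg4 crossed the line and Abce1 and Abcd3 fell short of it. With upper-quartile factors 4 were lower, Abcg2 and Abca13 being added.

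Genes beside the called members were compared in the same way. On the sides of Abcc3, Ankrd40 had 2622 and 2744 reads (log2 ratio 0.04) and the calcium channel gene Cacna1g 78 and 376 (2.23). Ccdc114, on the other side of Abcc6 from Nomo1, had 519 and 358 reads (-0.56). Beside Abcc9, Ldhb had 11813 and 13979 reads and Cmas 4049 and 2736 (-0.59). Abcd4 lay between Lin52 (501 and 423 reads, -0.27) and Vrtn (124 and 16 reads, -2.94). Vrtn was called lower, but it reached 1 CPM in the untreated library alone, so that call is partly set by the filter. Abcg3 lay between Zfp951 (976 and 1143 reads, 0.20) and Gbp9 (54 and 39 reads, -0.49). The lower genes had neighbours with negative ratios on both sides. Beside Abcd3 these were F3 (473 and 264 reads, -0.87) and Arhgap29 (2942 and 1393 reads, -1.11), with Abca4 229 kb away. Beside Abce1 they were Tpd52-ps (235 and 138 reads, -0.79) and Anapc10 (718 and 413 reads), which starts 0.08 kb from Abce1 on the opposite strand.

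Below the level were 16 members, with at most 38 reads in the untreated and 52 in the Adriamycin library. Abca6 and Abca8b had no reads, where a count of 0 allows up to 0.0754 CPM without the drug and 0.0740 CPM with it. Of the 14 with reads, 11 had a scaled ratio above 1 (78.6%), against 57.5% of the 14252 genes below the level with reads. Abca12, a skin lipid transporter, had 4 and 52 reads, Abca17 1 and 44, Abca14 9 and 30, Abca15 0 and 3, Abca16 19 and 22 and Abca4, the retinal transporter, 38 and 32. Abca9 had 0 and 10 reads.

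Genes that work with the ABC proteins were counted by lists. The shares to set beside each list are those of all measured genes, 17.0% higher and 6.95% lower. Translation partners of ABCE1 and ABCF proteins had 0 higher and 2 lower of 9 measured, with a median log2 ratio of -0.62. The lower ones were Etf1, the termination factor eRF1 (31175 and 13552 reads, log2 ratio -1.23), and the initiation factor gene Eif2s2 (15627 and 6598, -1.27). Sterol sensing and transport genes had 2 higher of 15 (median 0.20). These were Nceh1, a cholesteryl ester hydrolase gene (735 and 1829 reads, 1.29) and the retinoid receptor Rxra (2724 and 5799, 1.06). The liver X receptor genes Nr1h2 and Nr1h3, whose products act on Abca1 and Abcg1, had log2 ratios of 0.11 and 0.64.

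Of 12 measured genes on the list of regulators of drug transporters, 4 were higher and 0 lower (median 0.18). Over all measured genes the shares were 17.0% higher and 6.95% lower. Nr1i2, the pregnane X receptor, was measured only through the Adriamycin library, as were the list genes Tap2, Nr1h3, Col6a1 and Cdh5. It had 13 and 192 reads (log2 ratio 3.81, 3.05 to 4.79), the glucocorticoid receptor gene Nr3c1 817 and 3054 (1.87), Esrra 1001 and 2216 (1.12) and Foxo3 6868 and 14251 (1.02). The transcript of p53, Trp53, is on the same list at -0.57. Genes of anthracycline reduction and transport outside the ABC family had 2 higher and 0 lower of 8 (median -0.04). Mvp, the major vault protein gene, had 1867 and 7929 reads (2.06), and the carbonyl reductase gene Cbr3 488 and 1100 (1.14). Glutathione genes had 1 higher and 0 lower of 10, Gsto1 (366 and 819 reads, 1.13), and the 11 peroxisome and cobalamin genes had none past 2-fold.

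The libraries held 41820999 (untreated) and 38561292 (Adriamycin) reads. All 10 stem cell markers were measured, with summed levels of 6952 and 4014 CPM, and 5 of them were lower (Nanog at -1.66, Zfp42 at -1.89, Utf1 at -1.14, Esrrb at -1.06 and Tdgf1 at -1.02). Pou5f1 was at -0.51 and Sox2 at -0.42. Of 10 fibroblast markers, 6 were measured and 3 were higher (Col1a1 at 2.57, Col6a1 at 3.81 and Fbln2 at 3.11), with sums of 45.2 and 119 CPM, while Col3a1, Postn, Lum and Dcn had 0 reads in both libraries. Of 10 endoderm, liver, endothelial and blood markers, 6 were measured and 1 was higher (Cd3e at 1.01), with sums of 166 and 147 CPM, and the liver genes Alb and Afp had at most 20 reads. The part of these marker levels in the ABC ratios was not tested. Of all measured genes, 17.0% were higher and 6.95% lower.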

How the data were processed

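The values are raw read counts per gene as deposited by the authors, 1 table per library. They were made, per the file headers, by featureCounts 2.0.3 in paired-end mode over exons of annotation release 105 of GRCm39, requiring both ends to align and using no strand option, so reads from overlapping genes on opposite strands cannot be told apart. The submitters' processing notes name other versions (featureCounts 1.6.0, builds mm9 and mm10). Coordinates are those of the deposited tables except the promoter windows, which are on GRCm38.p6. Symbols were matched by Ensembl identifier for 52081 of 55414 rows.

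Libraries were scaled with TMM factors of 0.951 and 1.05 (edgeR 4.0.16, R 4.3.3). Ratios carry a pseudocount of 0.5 read and intervals are exact at 95%, computed with scipy 1.17.1 under Python 3.11.15 (tables with pandas 2.3.3, figures with matplotlib 3.10.9). Both were tested on simulated Poisson counts, which hold no mates, PCR copies or variation between cultures. Mates and PCR copies are not independent molecules, so intervals and floors cover counting error only and are too narrow. With 1 library per group no edgeR or DESeq2 test was possible. The members were to be accounted for by rule, and all 50 enter the counts, medians and sums, but the values of some members and list genes are not reported here. Named besides are the called members' nearest measured neighbours, members within 500 kb of a called one, and list genes past 2-fold. Kcnj8, Kcnj11, Alb, Afp, Nr1h2, Nr1h3, Cftr, Crot, Rundc3b and the overlapping genes were chosen outside that rule. Members and lists were chosen with earlier results of these data known. Alternatives were total counts, upper-quartile and DESeq2 1.42.0 factors, pseudocounts of 0.1 and 2, other filters, a 1.5-fold rule and members without exon overlap. The Gcn1 entry on the translation list matched no symbol and was not used here.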

Additional observations from a re-analysis of the deposited data

How the results depend on the processing

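The members called past 2-fold were 8 higher and 2 lower. With total counts the lower count was 0, with upper-quartile factors it was 4, and the log2 median of 0.48 became 0.62 and 0.36, while the distance from the median of all genes stayed at 0.50 to 0.51. That distance was 0.16 with a mean of at least 5 CPM. Without members of overlapping exons it was 0.18, but there the median of all genes still included genes with overlaps. With DESeq2 size factors and with pseudocounts of 0.1 and 2, both counts were as given. Scaling moved the median of all genes from -0.03 to 0.12 with total counts and to -0.15 with upper-quartile factors. With a mean of at least 5 CPM, 3 of 23 were higher (12.5% of all genes at that level) and the median was 0.069. With no filter on low counts, 17 of 48 were higher (29.2% of all genes) and 3 were lower (14.7%). A 1.5-fold rule gave 14 higher (25.7% of all genes) and 5 lower (18.9%). For total counts the shares of all genes were 19.6% higher and 4.85% lower, and for upper-quartile factors 15.1% and 9.39%. Over the 26 members with no exon overlap, 5 were higher, 2 were lower and the median was 0.15. For total counts and upper-quartile factors the change follows from the scaling itself, for the filters and the overlap rule from which members enter. Requiring the interval of counts divided by 2 to exclude no difference removed none of the 10 calls. Over the 5 alternatives of scaling and pseudocount, 3 of the 34 log2 ratios changed sign, those of Abcb5, Abcb6 and Abcb10, none of them called. That of Abcb1b lay between 2.29 and 2.56. No paired analysis was possible because each group has 1 library, and no library could be left out for the same reason. Depth limits the low members most: with 2 and 85 reads the interval of Abcc9 ran from 3.48 to 8.45, and with 20053 and 10046 that of Abce1 from -1.06 to -0.99.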
